A study of Macaca mulatta with 35 samples.

Results

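The 200 transcripts described here stood high in both somatic cell types of the rhesus monkey antral follicle and lower in the oocyte. They were chosen from measured levels. For each of 49537 transcript IDs, the mean of log2(TPM + 1) was taken over all libraries of cumulus cells, of granulosa cells and of oocytes, where TPM is the authors' level scaled by transcript length and library size. A mean estimated count of at least 50 in both cumulus and granulosa cells was met by 17224 transcripts, and 14905 of these differed by less than 1 on the log2 scale between the somatic types. The gap, which is the lower of both somatic means minus the oocyte mean, was above 1 in 1646 of them, and the 200 with the largest gap are the members. No gene name goes with these transcript IDs in the tables used here, so members are called by their rank of gap from 1 to 200, and few IDs are printed.

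The RNA came from ovaries of adult females recovered at necropsy, and cells were taken from single antral follicles called small, medium or large in the labels. Of the 35 libraries, 11 were cumulus cells, 12 granulosa cells and 12 oocytes. Each of the 9 combinations of cell type and size had 4, except cumulus cells of small follicles, which had 3. The labels name no treatment or genotype and tie no library to an animal or a follicle, so p-values only weigh differences against the spread of libraries in a group, and that spread may be technical. A library is called here by its cell type, its follicle size and its title's number. RNA was isolated with PicoPure and amplified with the Ovation RNA-Seq v2 system, per the labels.

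Cumulus and granulosa cells share an origin in the small flat cells around the oocyte of the early follicle, and they part when a fluid-filled cavity forms. Granulosa cells line the follicle wall and make estradiol and inhibin under the control of follicle-stimulating hormone. Cumulus cells stay around the oocyte, are joined to it by gap junctions and pass it metabolites, and the oocyte in turn sends growth factors to them.

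Libraries held 20780476 to 52350387 estimated counts, with a median of 28839787. Labels of cell type could not be set against marker genes, since no ID carries a gene name. An oocyte-high set was taken from these same libraries: the 200 transcripts most above both somatic types in oocytes, with a mean estimated count of at least 50 there. It held 3.61% to 9.79% of counts in oocyte libraries and 0.0266% to 0.464% in somatic ones. The choice fixed this contrast, so it is no check of the labels. Over 0.2% was found in 6 somatic libraries: cumulus small 1, small 2, medium 2 and large 3, and granulosa medium 4 and large 1. Replicates differed by more than counting noise in every pair of a group (lowest chi-square per degree of freedom 63.3).

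The gap of the members ran from 2.24 to 5.78 on the log2 scale, with a median of 2.60. It exceeded 4 in 7 members and 3 in 50 and was under 2.5 in 84. Since these values chose the members, they are a description and carry no test. The last member inside, rank 200, averaged 15.3 TPM in cumulus cells, 9.06 in granulosa cells and 0.943 in oocytes. The first transcript outside averaged 12.6, 8.79 and 1.28 TPM, with a gap of 2.23 against 2.24.

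**Figure D1:**
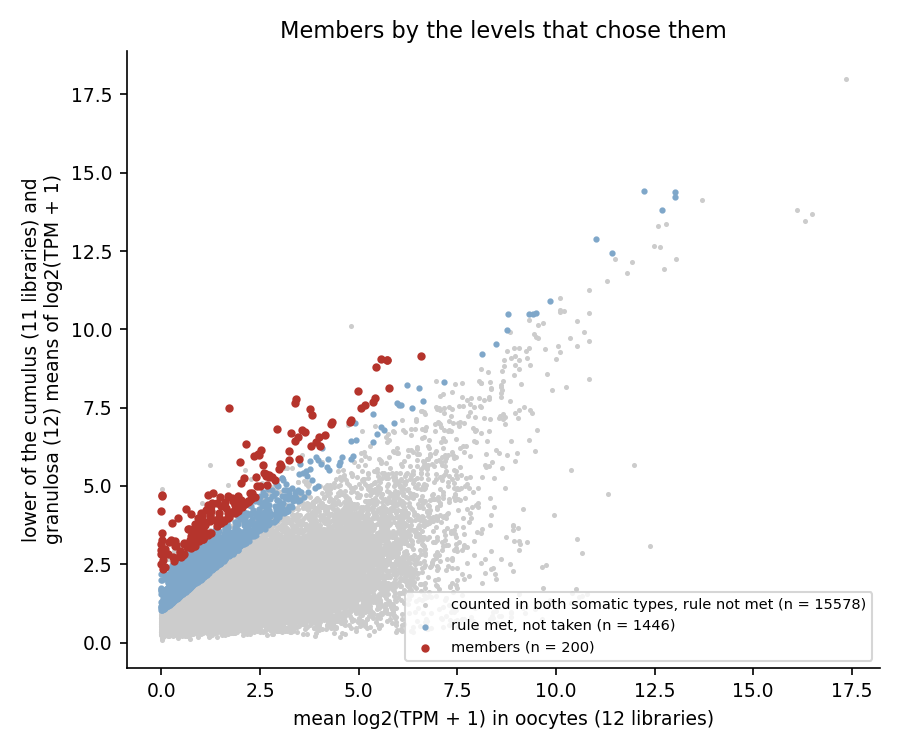
Each point is a transcript with a mean of at least 50 counts in both somatic cell types. The x axis is the mean log2(TPM + 1) over 12 oocyte libraries, and the y axis is the lower of the cumulus and granulosa means. Members (red, n = 200) form the upper left edge of the 1646 transcripts that met the rule, at gaps of 2.24 to 5.78.

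ENSMMUT00000019662.4, 1375 bases long, had the largest gap. It ranged from 101 to 329 TPM in the 11 cumulus libraries (median 167), from 74.0 to 340 in the 12 granulosa libraries (median 216) and from 0.0833 to 26.3 in the 12 oocyte libraries (median 1.19). Its oocyte values were uneven: the libraries numbered 2 stood at 10.8, 26.3 and 14.5 TPM for small, medium and large follicles, and the highest of the other oocyte values was 3.67. Every somatic library lay above every oocyte library.

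ENSMMUT00000089822.1, 1834 bases long and second by gap, ranged from 13.7 to 69.5 TPM in cumulus libraries (median 43.5) and from 10.8 to 46.1 in granulosa libraries (median 26.8). Over the 12 oocyte libraries it had 1.0 estimated count, in oocyte small 3, and was listed at 0 in the others. The member of rank 3, 2841 bases long, was of the same kind, with 1.6 estimated counts over the oocyte libraries and medians of 22.8 TPM in cumulus and 36.2 in granulosa cells. Its somatic levels varied more, from 5.57 to 110 and from 1.25 to 67.2 TPM. Estimated counts of both were not whole numbers, which means that part of their reads was shared out among transcripts, and a value of 0 can reflect that division.

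Ranks 4 and 5 had whole counts in every library and kept measurable levels in oocytes. Rank 4, 609 bases long, had medians of 175 TPM in cumulus, 320 in granulosa cells and 8.31 in oocytes, where oocyte large 3 reached 87.1. Rank 5, 1833 bases long, was the more even: 152 to 277 TPM in cumulus, 86.5 to 361 in granulosa cells and 2.37 to 20.7 in oocytes. In neither did a somatic library fall to the level of the highest oocyte library.

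Most members were low rather than absent in oocytes. The median member had a mean of 22.8 TPM in cumulus cells, 20.6 in granulosa cells and 2.12 in oocytes. Only 4 members were listed at 0 in every oocyte library and 9 stayed under 0.1 TPM in all of them, while 42 were above 1 TPM in every oocyte library. In somatic cells 185 members were above 1 TPM in all 23 libraries, and 4 were listed at 0 in at least 1 library.

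In 97 members every somatic library lay above every oocyte library. Among the 17224 transcripts counted in both somatic types this held for 3.32%, but the rule used this contrast and nothing is read from the difference. Cumulus libraries alone lay above all oocyte libraries in 164 members (background 15.3%) and granulosa libraries alone in 105 (background 3.88%). In the other 103 members the lowest somatic value was in granulosa small 3 for 54 and the highest oocyte value in oocyte small 2 for 36. The rest were spread over further libraries. Without these 2 libraries, a choice made after seeing the values, 145 members were free of overlap and the others still overlapped. No background is given for this count, and the rule used this contrast.

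The members held 2.78% ± 0.65 of estimated counts in cumulus cells (SD, n = 11), 3.32% ± 1.18 in granulosa cells (SD, n = 12) and 0.219% ± 0.0895 in oocytes (SD, n = 12). These shares depend on the scale: of TPM the members held 1.53%, 1.72% and 0.166%, and of counts with the 4 most abundant transcripts of the series left out of the total 4.46%, 5.33% and 0.357%. On each of these scales the mean was lowest in oocytes, which the rule fixed. The 10 members with most counts held 36.6% ± 7.83 of the members' counts in cumulus, 40.6% ± 7.85 in granulosa cells and 40.0% ± 8.53 in oocytes. Mean shares of different follicle sizes were closer than the SD within groups in each cell type. Cumulus libraries averaged 2.68% in small, 2.63% in medium and 3.0% in large follicles, with an SD of 0.455 to 0.849. Granulosa libraries averaged 3.10%, 3.49% and 3.37%, and oocytes 0.233%, 0.194% and 0.229%, with an SD within groups of 0.0478 to 0.133 in oocytes and 0.868 to 1.55 in granulosa cells. Fewer cells and less RNA per cell cannot be told apart in such bulk libraries.

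**Figure D2:**
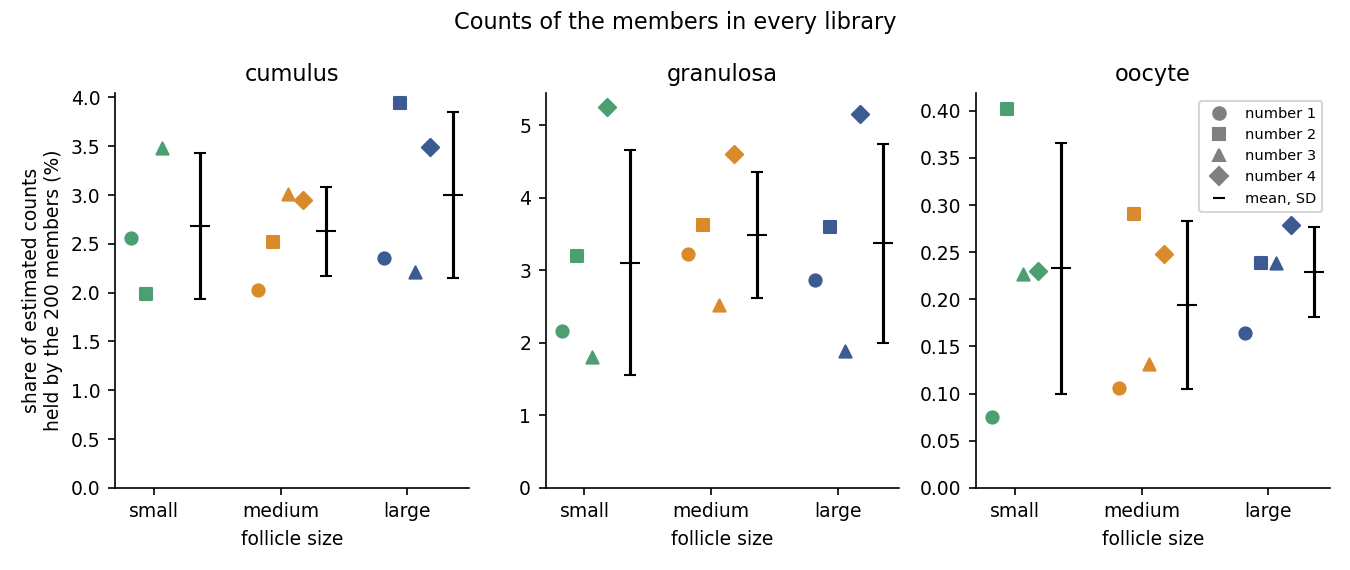
Each point is a library: the share of its estimated counts held by the 200 members (y axis, percent, with a different range in each panel) by follicle size (x axis), with the marker giving the library number and the bar the group mean and SD. Groups of different size overlap in all 3 cell types, and the 3 granulosa libraries numbered 4 are the highest of their size, at 4.60% to 5.25%. Without the member of rank 137, granulosa medium 4 and large 4 are not the highest of their size.

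Among oocytes the lowest share was 0.075% in oocyte small 1 and the highest 0.402% in oocyte small 2, both from small follicles. The lowest oocyte value was in oocyte small 1 for 100 members, and 66 had their highest in oocyte small 2. Oocyte small 1 had 63 members above 1 TPM and oocyte small 2 had 155. The share of oocyte-high transcripts was 7.72% in oocyte small 1 and 5.16% in oocyte small 2, and the lowest value of 3.61% was in oocyte medium 2, where the members held 0.291%, the second highest share. The part of carried-over somatic cells in these values was not tested.

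The rule held cumulus and granulosa levels within 1 on the log2 scale, and within that limit the members leaned to cumulus cells. The mean log2 level was higher in cumulus cells in 133 members and higher in granulosa cells in 67. The median difference, cumulus minus granulosa, was 0.146, below the 0.409 of all 17224 transcripts counted in both. The lower quartile was -0.145 in members and 0.0956 in the 17224, so the lean was stronger over all counted transcripts than in members. In 129 members the difference was under 0.5 and in 10 it was over 0.9. No member had every cumulus library above every granulosa library (background 1.41%), and none had the reverse (background 0.00581%). The lean varied with size: cumulus levels were the higher ones for 129 members in small, 94 in medium and 144 in large follicles. Whether all counted transcripts varied likewise was not tested. All of these are descriptions of a contrast that the rule used.

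The most abundant member split the libraries into separate levels. It was of rank 137 and 1076 bases long. In cumulus cells it stood at 8410 TPM in small 3, 8980 in medium 4 and 7480 in large 4, against 42.2 to 73.4 in the other 8 libraries. Granulosa libraries numbered 4 stood at 17800, 14700 and 17800 TPM for small, medium and large follicles, against 57.3 to 101 in the other 9. In oocytes the libraries numbered 4 stood at 1070, 759 and 1320 TPM, against 9.79 to 30.0.

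Every library with the number 4 was thus at the high level in all 3 cell types. One library with another number, cumulus small 3, was there too, and the group of cumulus cells from small follicles has no number 4. Within either level this member was higher in somatic cells than in oocytes. Its counts were not whole, so reads were shared with other transcripts. The labels do not say what a number stands for, and what sets the levels was not tested. Without this member the members' share in the granulosa libraries numbered 4 was 3.46%, 3.18% and 3.29% in place of 5.25%, 4.60% and 5.15%. Granulosa medium 1 and medium 2, at 3.21% and 3.61%, were then above medium 4, and large 2, at 3.59%, was above large 4. Granulosa small 4 stayed the highest of its size.

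Ranks 26 and 27, both 1065 bases long, had the same estimated counts in every library and count as 1 measurement. In oocytes their level was 10.4, 0.585 and 12.1 TPM in the libraries numbered 4 and 61.4 to 213 in the other 9, the opposite order to rank 137. Granulosa libraries numbered 1 and 4 stood at 256 to 532 TPM and those numbered 2 and 3 at 1500 to 3100. In cumulus cells the range was 172 to 994 TPM, with the lowest value in medium 4.

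**Figure D3:**
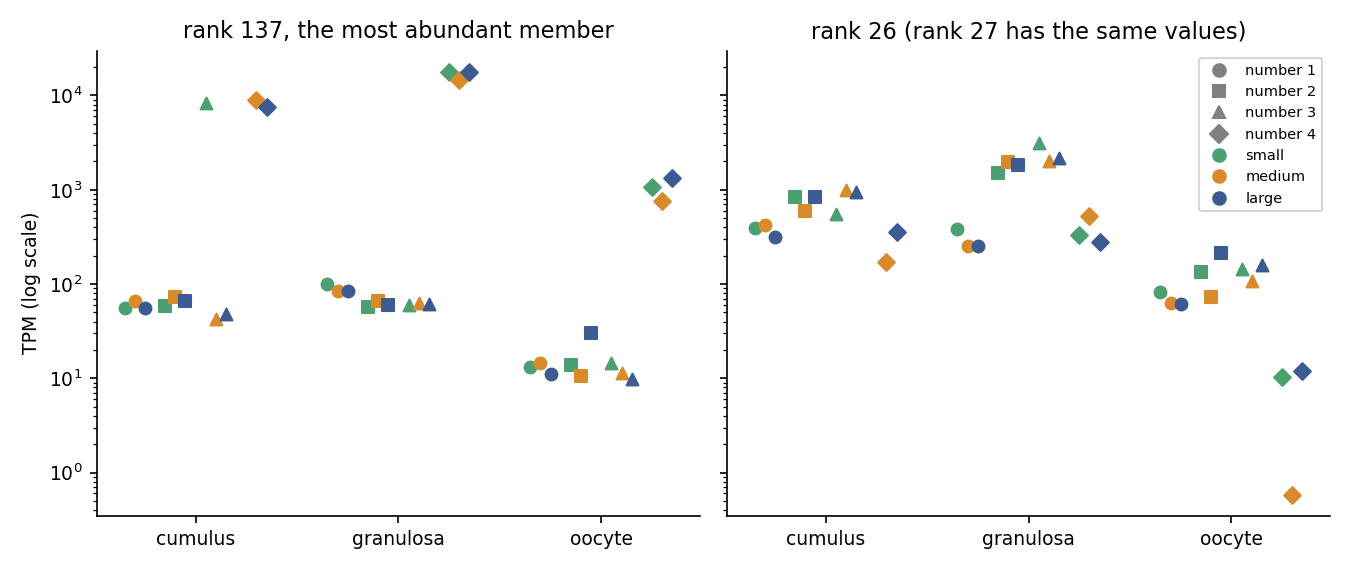
TPM (y axis, log scale) of the most abundant member, rank 137 (left), and of rank 26 (right) in every library by cell type (x axis), with the marker giving the library number and the colour the follicle size. Rank 137 is at 759 TPM or more in all libraries numbered 4 and in cumulus small 3, and at 101 or less in the others.

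Rank 105, 1378 bases long, was the second most abundant member, at 642 to 2580 TPM in cumulus cells (median 966), 114 to 2030 in granulosa cells (median 593) and 18.8 to 209 in oocytes (median 119). Its lowest granulosa values were 114 in small 3 and 178 in large 4, so that somatic and oocyte libraries overlapped. Rank 20, 447 bases long with whole counts, stood at 239 to 967 TPM in cumulus (median 705), 192 to 992 in granulosa cells (median 566) and 5.88 to 135 in oocytes (median 56.7), without overlap.

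In granulosa cells the library number accounted for more of the members' variation than follicle size did. Number explained on average 68.3% of a member's variance of log2(TPM + 1) between the 12 granulosa libraries and size 10.1%, where unrelated labels average 27.3% and 18.2%. Over 50% of the variance went with number in 166 of 200 members, against 67.4% of the 17224 counted transcripts. The average over those transcripts was 58.7% for number, so this structure is not limited to the members.

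Deviations from the group means across the 200 members had correlations of 0.64 to 0.83 in the 12 pairs of granulosa libraries with the same number, and of -0.64 to 0.03 in the 36 pairs with other numbers and other sizes. These correlations are across transcripts of 1 library each and carry no p. In oocytes the same-number pairs ran from -0.16 to 0.53 and in cumulus cells from -0.31 to 0.61, where pairs with other numbers reached 0.73. Without cumulus small 3, which stood with the number 4 libraries in rank 137, cumulus pairs ran from -0.09 to 0.61 for the same number and from -0.44 to 0.23 for other numbers. Number explained on average 40.6% in oocytes, for the 196 members that vary there, and 28.3% in cumulus cells, where unrelated labels average 27.3% and 30.0%. Without cumulus small 3 the cumulus value was 34.3%, with 33.3% for unrelated labels.

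Members set apart by number in granulosa cells were most often high in the libraries numbered 4 or low in those numbered 3. In 42 members all 3 granulosa libraries numbered 4 lay above the other 9 (background 9.68%), and in 2 they lay below (background 0.766%). In 33 members those numbered 3 lay below the other 9 (background 6.44%), and in 3 above (background 0.488%). Those numbered 2 lay above in 13 members (background 1.81%) and below in 9 (background 4.24%). Those numbered 1 lay above in 4 members, where the background was 13.1%, and below in 6 (background 1.08%). In oocytes the libraries numbered 1 lay below the other 9 in 14 members (background 1.13%), and those numbered 2 lay above in 7 (background 0.412%) and below in 0 (background 10.7%). The median member deviated from the granulosa mean by -0.94 in small 3, -0.16 in medium 3 and -0.71 in large 3, while the median counted transcript deviated by -0.27, -0.17 and -0.27. In the libraries numbered 4 these medians were 0.39, 0.41 and 0.30 for members and 0.16, 0.29 and 0.01 for counted transcripts. Medium 1 and large 1, at 0.31 and 0.32, were as high for members.

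**Figure D4:**
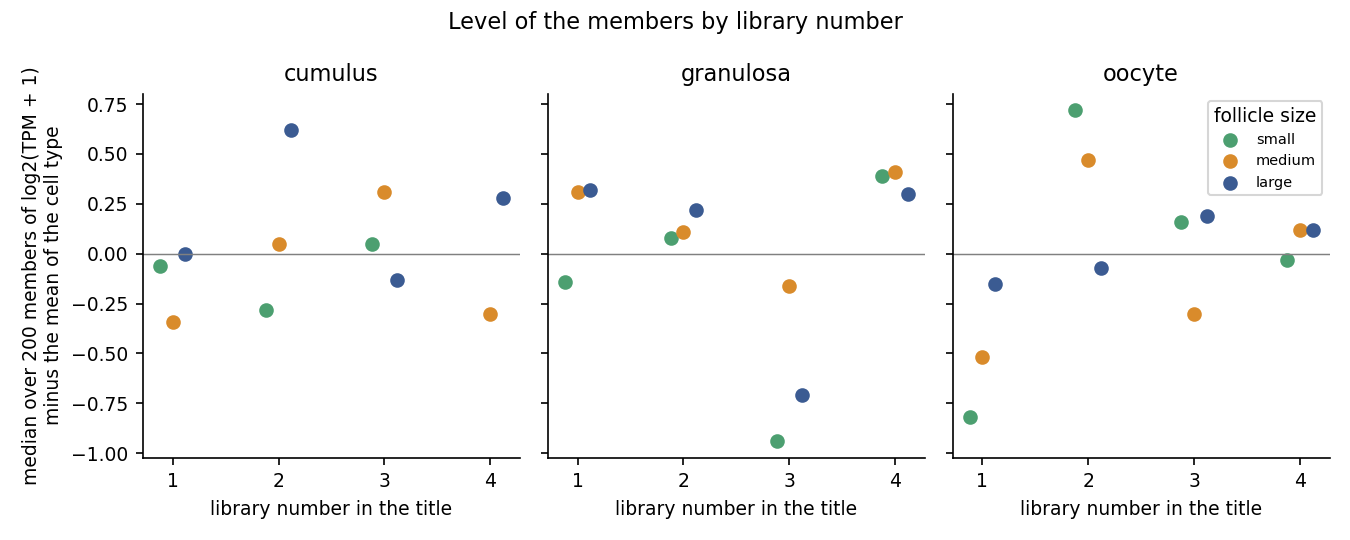
Each point is a library. The y axis is the median over 200 members of log2(TPM + 1) minus the mean of that cell type, and the x axis is the library number, with colours for follicle size. In granulosa cells the points of number 4 lie at 0.30 to 0.41, next to medium 1 and large 1 at 0.31 and 0.32, and those of number 3 lie between -0.94 and -0.16. In cumulus cells number 3 runs from -0.13 to 0.31.

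As a description, the spread between libraries was wider in members than over all transcripts counted in both somatic types. The median SD of log2(TPM + 1) was 0.748 in granulosa cells against 0.487 for all 17224, 0.549 against 0.437 in cumulus cells and 0.742 against 0.493 in oocytes. Levels differ between both sets, with a median cumulus mean of 22.8 TPM in members and 3.61 in the 17224, and their part in this difference was not tested. The steadiest members were rank 123 in cumulus cells, at 103 to 153 TPM in 11 libraries, and rank 160 in granulosa cells, at 3.15 to 6.15 TPM in 12.

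Follicle growth was asked of each cell type in turn, with edgeR's quasi-likelihood test fitted on all transcripts and Benjamini-Hochberg adjustment over all of them. The rule used no size contrast. All 200 members passed the filter on low counts in cumulus and in granulosa cells and 181 did in oocytes. None passed an adjusted p under 0.05 in any of the 9 size comparisons (background 0.0% in the cumulus and oocyte comparisons and for granulosa large against medium, 0.00348% in the other 2 of granulosa cells).

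In cumulus cells of large against small follicles every large library lay above every small one in 30 members (background 5.23%) and below in 1 (background 0.906%). At an unadjusted p under 0.05, 19 members were higher in large follicles (background 2.32%) and 1 lower (background 1.4%), while by adjusted p there were 0 (edgeR, lowest 0.665). The median log2 difference was 0.20 over the members, with a median SE of 0.40, and -0.01 over all transcripts tested, and 135 of 200 members had a positive sign. With 1 library left out, the members' median ran from 0.04 without cumulus small 2 to 0.41 without cumulus small 1. In these fits 107 and 156 members were positive, and the median over all transcripts tested was 0.03 in each. The 19 fell to 4 without cumulus small 3 (background 1.93%) and to 9 without cumulus small 2 (background 1.89%). They fell to 11 without cumulus large 1 (background 1.7%) or large 3 (background 1.98%). Leaving out the 6 libraries over 0.2% of oocyte-high counts leaves 1 small library. The members' median log2 difference was then 0.23, with a median SE of 0.62, against 0.095 over all transcripts tested. With all 35 libraries in 1 fit 1 member was higher (background 2.47%). Leaving out cumulus small 1, medium 1 or medium 3 gave 24, 24 and 26 (backgrounds 2.49%, 2.54% and 2.4%). Cumulus large 2 gave 95 members their highest cumulus value, and the fit without it gave 14 (background 2.21%).

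ENSMMUT00000083285.1, rank 117 and 6855 bases long, had the smallest p among members higher in large follicles. Cumulus libraries of small follicles stood at 2.65, 2.82 and 2.43 TPM, those of medium ones at 5.29, 6.43, 3.71 and 3.17, and those of large ones at 5.90, 11.5, 4.61 and 7.59. Large and small libraries did not overlap (log2 difference 1.38, SE 0.26, edgeR adjusted p = 0.665). DESeq2 called it (log2 difference 1.40, adjusted p = 3.28e-05), the only member it called in this comparison, where its background was 0.59%. In the other direction, ENSMMUT00000023466.4, rank 161 and 1603 bases long, stood at 27.7, 42.8 and 26.5 TPM in small and 20.4, 24.2, 17.1 and 17.7 in large follicles (log2 difference -0.74, SE 0.25, edgeR adjusted p = 1.0).

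In cumulus cells of medium against small follicles 8 members had an unadjusted p under 0.05 (background 3.69%), and for large against medium there were 2 (background 3.66%). Both counts by adjusted p were 0 (edgeR). DESeq2 called 1 member for medium against small, rank 128 (log2 difference 1.48, SE 0.38, adjusted p = 0.0213), with a background of 0.637%, and 0 for large against medium.

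In granulosa cells the counts at an unadjusted p under 0.05 depended on whether the library number was in the fit. Without it they were 2 members between medium and small (background 2.28%), 0 between large and medium (background 1.09%) and 3 between large and small (background 2.17%), with 0 calls in each by edgeR and by DESeq2. Median log2 differences of the members were 0.27, -0.19 and 0.13, with median SEs of 0.53 to 0.54, and 151, 59 and 131 of 200 members were positive. Over all transcripts tested the medians were -0.02, 0.004 and -0.02. With 1 library left out, the members' medians ran from 0.13 to 0.46, from -0.35 to -0.01 and from -0.04 to 0.30.

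Same-numbered granulosa libraries deviate together, and with the number as a replicate block the counts were 29 members between medium and small (background 4.67%), 4 between large and medium (background 1.65%) and 17 between large and small (background 3.83%). By adjusted p they were again 0 (edgeR). Of the 29 members 27 were higher in medium follicles (background 2.68%). The median difference of all 200 was then 0.41 with a median SE of 0.31, and 154 were positive. Over all transcripts tested the median was 0.01. Single libraries moved this count of 29 widely. It was 14 without small 1 (background 2.65%), 17 without small 3 (background 2.71%) and 15 without medium 1 (background 3.2%). It was 18 without medium 2 (background 3.39%) and 15 without medium 3 (background 2.31%). It was 55 without small 4 (background 4.77%) and 73 without medium 4 (background 8.0%). Without medium 4 and large 1, which are over 0.2% of oocyte-high counts, it was 76 (background 9.55%). When 1 library was left out, the count of 4 ran from 1 to 46, with backgrounds of 1.34% to 3.96%. That of 17 ran from 8 to 32, with backgrounds of 2.2% to 4.65%.

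ENSMMUT00000087506.1, rank 91 and 1402 bases long, stood at 11.3, 8.82, 5.05 and 15.1 TPM in small and 37.1, 10.5, 16.7 and 25 in large follicles, which overlap (log2 difference 1.11, SE 0.33, edgeR adjusted p = 1.0). ENSMMUT00000104675.1, rank 153 and 5339 bases long, stood at 12.4, 13.6, 11.8 and 11.1 TPM in small and 7.11, 8.91, 3.44 and 8.61 in large follicles (log2 difference -0.87, SE 0.35, edgeR adjusted p = 1.0). All of its small libraries lay above its large ones, which held for 1 of 200 members (background 0.546%).

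In oocytes, where the members are near their lowest, 4 of 181 members had an unadjusted p under 0.05 in each of the 3 comparisons (background 1.26% between medium and small, 2.12% between large and medium and 1.9% between large and small), with 0 calls by edgeR and by DESeq2. ENSMMUT00000088059.1, rank 17 and 4439 bases long, stood at 0.798, 0.604, 0.290 and 0.287 TPM in small and 1.21, 3.50, 5.26 and 0.628 in large follicles (log2 difference 2.34, SE 0.77, edgeR adjusted p = 1.0). ENSMMUT00000047505.3, rank 50 and 13176 bases long, was listed at 0 in 2 of the small-follicle libraries and at 0.897 and 0.575 TPM in the others. In large follicles it was at 0.0233 TPM in large 3 and at or near 0 in the other 3 libraries (edgeR, adjusted p = 1.0). Median SEs of 1.09 to 1.11 on the log2 scale show how little these low levels can resolve.

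**Figure D5:**
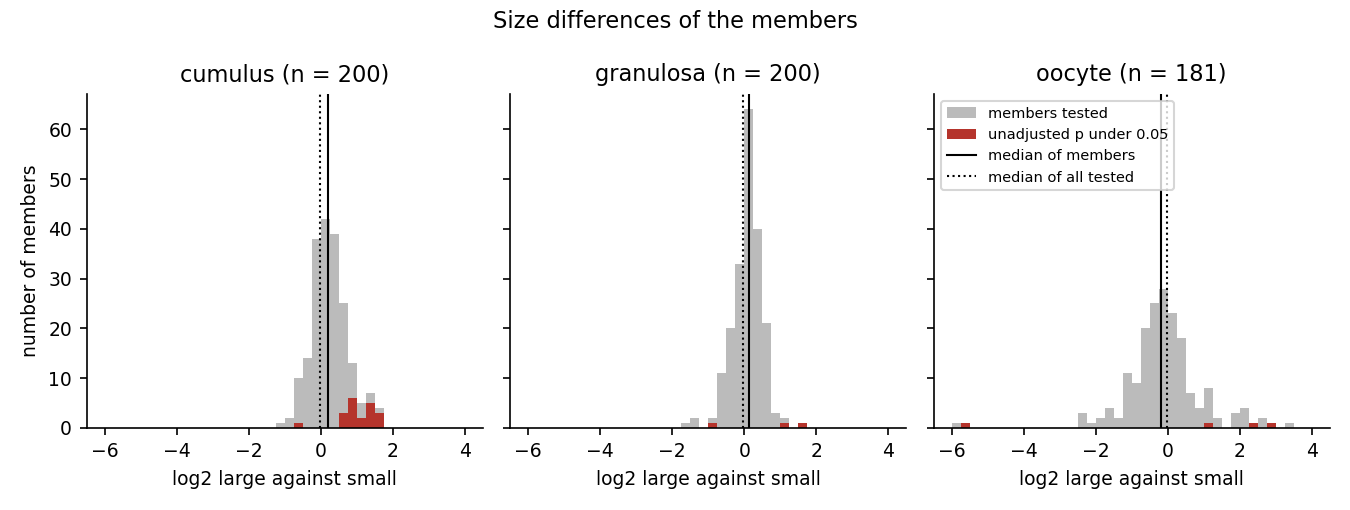
Histograms of the log2 difference between large and small follicles (x axis) over the members tested in each cell type (y axis, number of members). Red bars are members with an unadjusted p under 0.05, the solid line is the median of the members and the dotted line that of all transcripts tested. The cumulus median is 0.20, with the red bars mostly on the right, and no member passed the adjusted threshold.

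The large against small change of cumulus cells was also tested against that of granulosa cells. None of 200 members passed (edgeR, lowest adjusted p 1.0, background 0.0029%), and 4 had an unadjusted p under 0.05 (background 3.87%), or 17 with the number as a replicate block (background 3.74%). DESeq2 called 0. The median difference was 0.06 with a median SE of 0.73.

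Members could also be chosen from the libraries of 1 follicle size and read in the others, which the choice did not use. The list from small follicles had a median gap of 2.46 in medium and 2.39 in large follicles, and a gap above 1 in 199 and 193 of its 200 transcripts. The list from large follicles had a gap above 1 in 192 in small and 199 in medium follicles, with medians of 2.28 and 2.56. For the list from medium follicles these counts were 193 in small and 196 in large follicles. A gap above 1 was found for at least 192 of the 200 transcripts of each list in sizes that did not choose them. No share over all counted transcripts is given for these counts. Each list was chosen by the same contrast in another size, so nothing is read from the counts. Fewer were chosen again: 107 transcripts were shared by the lists of small and medium follicles (53.5% of each), 102 by small and large (51.0%), 120 by medium and large and 77 by all 3. Libraries of 1 number may share a source across sizes, so these readings are not independent.

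Lengths of the members ran from 324 to 14000 bases with a median of 2410, against a median of 2910 for the 17224 counted in both somatic types and 2560 for the 1446 that met the rule and were not taken. Whole counts in every library were found for 23 members, or 11.5%, against 8.58% of the 17224, so for most members part of the level depends on how reads were divided among transcripts.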

How the data were processed

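Total RNA of 35 libraries was amplified and sequenced. Per the submitters' processing notes, bcl2fastq 2.19.1 and kallisto 0.44.0 were used. Build and annotation: not given in the sources used here. The deposited estimated counts are the authors' assignment of reads to transcripts, per the file headers, and were rounded to whole numbers for tests. The deposited TPM values, the authors' own scaling of those counts, chose the members and give all levels. Transcript lengths are those deposited by the authors. Of the IDs, 0 matched the gene tables, so the lists of pathways and of cell type markers in the design could not be used and no sequence is printed. Library totals of 20780476 to 52350387 limit precision, and amplified reads are not independent molecules.

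Size comparisons used edgeR 4.0.16 in R 4.3.3: TMM factors, the default filter by group with a minimum count of 10, a robust quasi-likelihood fit on the libraries of 1 cell type (cumulus and granulosa together for the difference of changes) and Benjamini-Hochberg adjustment over all transcripts, called under 0.05. DESeq2 1.42.0 was an alternative. The test was tried on simulated counts. Shares of variance and overlap counts used TPM with 1 added before the log2 where a log was taken. A count was called whole within 1e-06. The members and lists were chosen with earlier results of these data known. IDs are printed for the 2 members of largest gap and, in each cell type, for the member of smallest p in each direction of large against small, and other members are described by rank: 3 to 5, the last inside and first outside, and the 5 of highest mean somatic TPM. Ranks 16, 64, 98, 123, 128, 160 and 170 were picked after their values were seen.

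Same-numbered granulosa libraries deviated together in all 12 pairs, with correlations of 0.33 to 0.67 over 17224 transcripts, which pairs them. In oocytes 10 of 12 pairs exceeded 0.1, with a range of 0.04 to 0.59 against -0.36 to 0.15 for other pairs. In cumulus cells 2 of 10 pairs exceeded 0.1. The main fits left the number out in every cell type, so any pairing is ignored there, and fits with the number as a block are alternatives. Fits with the block and a library left out, and the cumulus check without small 3, were chosen after seeing the data. Shares were also computed of TPM, from members with whole counts, and with the 4 most abundant transcripts left out of the total. The labels give no source for the number.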

Additional observations from a re-analysis of the deposited data

Results flagged for a closer look

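The level of ENSMMUT00000047505.3 in oocyte large 3 was 0.0233 TPM, far from the other 3 oocyte libraries of large follicles, which were at or near 0. This flag came from a comparison of each group's extreme library with the rest of its group. It rests on 7.91 estimated counts, which are not whole. Of such comparisons, 24 were made, and chance flags about 1 in 20.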

How the results depend on the processing

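None of the members was called by edgeR in the 9 size comparisons or in the difference of changes with RLE factors, with no filter, with all 35 libraries in 1 fit, in somatic cells without the 6 libraries over 0.2%, or without any 1 library (0 to 0 in each comparison). With the library number as a replicate block, 0 members were called in all 10 comparisons, and in granulosa cells also without any 1 library, so the block changed no call. It moved counts at an unadjusted p under 0.05 from 2 to 29 for granulosa medium against small, from 0 to 4 for large against medium, from 3 to 17 for large against small, and from 4 to 17 for the difference of changes. The last of these fits also blocked the cumulus numbers, which were not seen to pair libraries. There and in the cumulus fits, cumulus small 3 was entered as number 3, though in rank 137 it stood with the number 4 libraries. In cumulus cells 8, 2 and 20 members became 12, 4 and 24. Over all 31869 transcripts tested there, 1177, 1165 and 1187 became 989, 689 and 1132. In oocytes most same-number pairs deviated together. There the block turned the members' median from -0.32 to 0.20 for large against medium and from -0.19 to 0.28 for large against small. DESeq2 called 1 member for cumulus medium against small and 1 for cumulus large against small, where edgeR called 0, and 0 in the other comparisons. Over all transcripts it called 0.637% and 0.59% in those comparisons. The list itself depended on its settings. Of the 200 members 110 were kept with a pseudocount of 0.1, 141 with 5, 107 with TMM-scaled CPM in place of TPM, 159 with the median in place of the mean, and 130, 153 and 147 from small, medium and large follicles alone. A count minimum of 10 kept 200 and one of 200 kept 195. Leaving out 1 library kept 184 to 197, and leaving out the 6 libraries 174. The count of 97 members without overlap was 142 on the CPM scale and ran from 97 to 133 without 1 library. No background is given for these alternative counts, and the rule used this contrast, so nothing is read from them. The 6 log2 differences named by ID kept their sign in every fit. In oocytes 181 members passed the filter on low counts. Shares of counts by group or cell type moved by more than 1 SD under 23 alternatives, from the share of TPM, the members with whole counts or the reduced total, and by less under 6. Members with whole counts are a part of the 200, and a reduced total raises every share. The direction of these moves was thus fixed, while that of the share of TPM was not.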

Other observations

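Further members followed the library number in granulosa cells, as values seen after the fact. Rank 64, 2328 bases long, stood at 175, 140 and 167 TPM in the granulosa libraries numbered 4 of small, medium and large follicles and at 2.12 to 24.0 in the other 9. In cumulus cells, where it ranged from 6.98 to 50.6, the libraries numbered 4 stood at 9.39 and 15.7, so the high level was not shared across cell types as it was for rank 137. Rank 98, 1512 bases long with whole counts, had the same granulosa order, at 281, 267 and 339 TPM against 4.70 to 92.9. Rank 170, 4935 bases long, went the other way: 8.60, 14.3 and 8.51 TPM in the granulosa libraries numbered 4, while the lowest values of 0.145 and 1.31 were in small 3 and large 3, and medium 3 stood at 28.4. Rank 16, 9896 bases long, was at 0.0852 and 0.0319 TPM in granulosa medium 1 and large 1 but at 13.8 in small 1, and at 12.5 to 89.9 in the other 9 libraries. Counts of ranks 16, 64 and 170 were not whole.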
